A study of Mus musculus with 6 samples.

Results

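Integrins and the focal adhesion proteins that bind them were followed in cultures of mouse skull osteoblasts treated with the kinase inhibitor ZM-306416 (ZM). The set holds 44 of the 31401 genes in the deposited table. It takes every row whose symbol is that of an integrin alpha or beta chain (26 genes) and 18 named adaptor, scaffold and kinase genes of focal adhesions. The integrins were divided into 7 leukocyte chains, 14 stromal chains and 5 chains of other or shared lineages. The class names are rough. The stromal class also takes in Itga7, known from muscle, and Itga2, known from platelets and epithelia. Bulk samples do not show which cells held a transcript, so a stromal sum or median need not come from stromal cells alone.

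The tested group was 3 samples kept with 10 μM ZM and the other group was 3 samples kept without it (control), both for 6 days in osteogenic induction medium. All cells were primary, wild-type, and grown out of the calvaria of 3-day-old C57BL/6 mice after trypsin and collagenase digestion, and all samples carry the same batch label. ZM-306416 is a small molecule known to block the kinases VEGFR and EGFR. Neither separate cultures within a group nor the number of animals pooled is stated in the labels, so the p-values reflect the spread among these 6 libraries alone, and that spread could be technical.

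Integrins are receptors made of 1 alpha and 1 beta chain that tie the cytoskeleton to the matrix or to other cells. Talins and kindlins bind the beta chain tail and switch the receptor on, and the complex of ILK, PINCH and parvin proteins, with vinculin, paxillin, zyxin and tensins, links it to actin. Focal adhesion kinase and its partners pass on the signal. In bone, stromal cells hold on to collagen and fibronectin through integrins that share the Itgb1 chain, whereas the Itgb2 chain and its partners belong to leukocytes, among them the macrophages from which osteoclasts come.

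Libraries held 42721326 to 69867931 counts. Levels are given as FPKM (counts scaled to gene length and to a library size that was adjusted by the TMM method). Genes can be compared with each other only roughly, since each has a fixed length and the rule for shared reads was not given. Differences are log2 fold changes of ZM over control with their standard error, from edgeR's quasi-likelihood test, and a gene is called where the p-value adjusted over all tested genes is under 0.05. The collagen genes Col1a1 (1337 FPKM in ZM and 1355 FPKM in control samples) and Col1a2 were abundant, and the late osteoblast genes Ibsp, Bglap and Dmp1 lay under 0.3 FPKM in every sample. The other 3 of the 8 osteoblast markers rose, against 22.8% of all tested genes. Alpl, the alkaline phosphatase of early mineralising cells, averaged 7.66 ± 0.237 FPKM in ZM and 0.644 ± 0.0695 FPKM in control samples (3.58 ± 0.08), and the bone transcription factors Sp7 and Runx2 rose by 0.85 ± 0.18 and 0.29 ± 0.05. Macrophage transcripts were abundant in the same libraries. The 16 macrophage markers summed to between 7979 and 8890 FPKM in ZM samples and to between 15148 and 15829 FPKM in control samples. Most of each sum was Lyz2 alone, at 6587 ± 366 FPKM in ZM and 12495 ± 281 FPKM in control samples. The cultures labelled as osteoblasts thus also held transcripts of the macrophage lineage.

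Of the 44 members 41 had enough counts to be tested, and 31 of these were called, 15 higher and 16 lower with ZM. Among all 17533 tested genes 45.3% were called, 22.8% higher and 22.4% lower. The TMM scaling put 50.4% of all calls on the higher side and library size alone 62.2%, under which the members split into 17 higher and 16 lower. Members are well expressed, which makes small changes easier to call. Of the 33 tested members with a mean of at least 1 FPKM 27 were called, against 52.9% of all genes at that level, and 12 were called at 1.5-fold or more, against 10.4%. At least 1.5-fold changes were called for 14 of the 41 members, 5 higher and 9 lower, against 14.4% of all tested genes (7.01% higher and 7.41% lower). The groups did not overlap for 33 of the 41 members and for 54.2% of all tested genes.

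**Figure D1:**
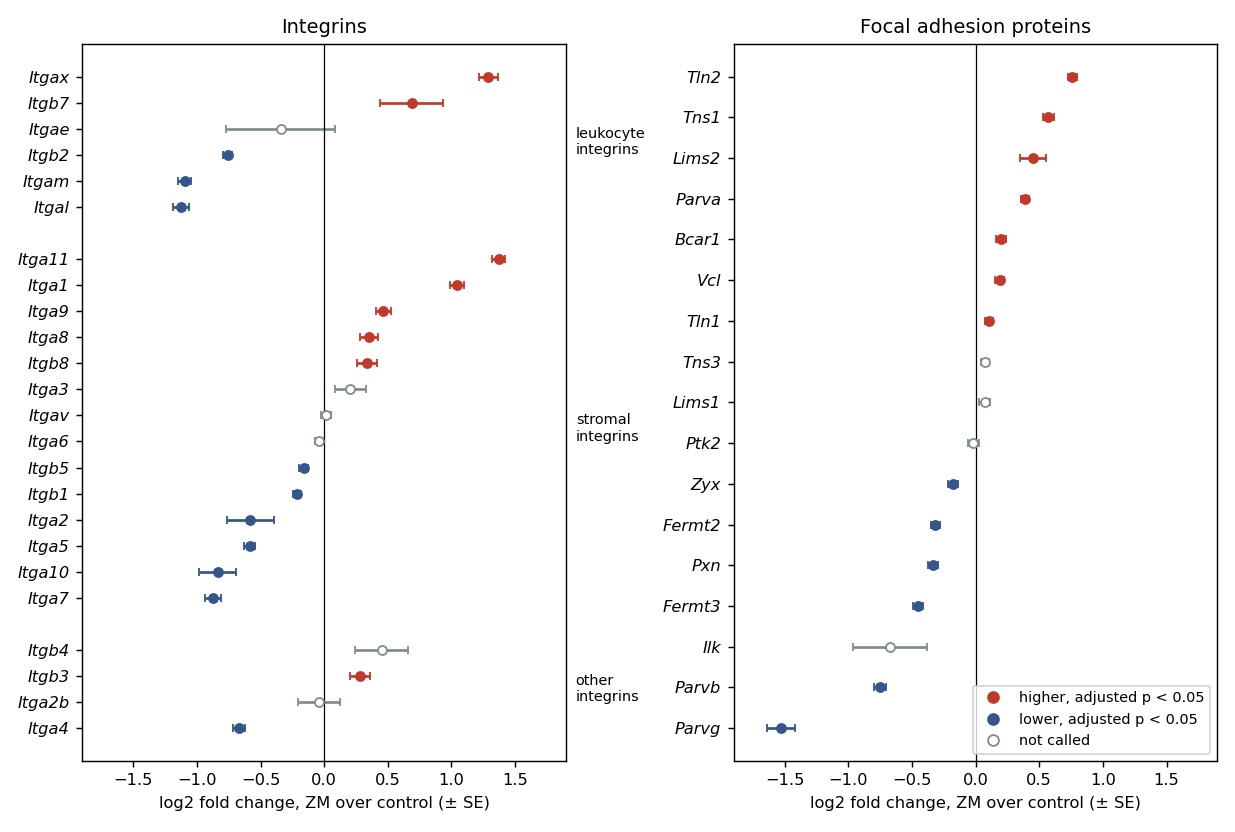
Log2 fold change of ZM over control with its standard error (3 samples a group) for the 41 tested members, integrins on the left and focal adhesion proteins on the right, sorted within each class. Filled red points are called higher, filled blue points called lower and open grey points not called; Itga11 lies highest at 1.37 and Parvg lowest at -1.53.

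The beta chains set the frame for both classes. Itgb1, the common partner of most stromal alpha chains, had the highest level of all 44 members. It stood at 391, 387 and 404 FPKM in ZM samples, against 461, 459 and 449.5 FPKM in control samples. Every ZM sample was below every control sample, yet the difference was small, a log2 fold change of -0.21 ± 0.03 (adjusted p = 3.2e-05, edgeR). Itgb5, a vitronectin receptor chain that pairs with Itgav, came next with 187, 186 and 193 FPKM in ZM samples, against 218, 204 and 211 FPKM in control samples. It too was lower in each ZM sample (-0.16 ± 0.03), but its call ended on log2(FPKM + 1) values with limma. Together these genes and Itgb2 made up almost all beta chain transcripts, and Itgb8, known for activating latent TGF-beta, averaged 0.962 ± 0.0380 FPKM in ZM and 0.761 ± 0.0373 FPKM in control samples (SD, n = 3 each), a called rise of 0.34 ± 0.08.

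Leukocyte integrins went in opposite directions. Itgb2, the beta chain of the leukocyte receptors, was at 71.4, 71.3 and 66.6 FPKM in ZM samples, against 114, 122 and 118 FPKM in control samples. All ZM samples lay far below all control samples, and the log2 fold change was -0.76 ± 0.04 (adjusted p = 7.1e-11, edgeR). Its partner Itgam, the CD11b chain of complement receptor 3 on macrophages, stood at 11.1, 11.8 and 9.93 FPKM in ZM samples, against 22.5, 23.7 and 24.0 FPKM in control samples. Itgal, the CD11a chain of LFA-1, which binds ICAM proteins, was at 2.34, 2.33 and 2.23 FPKM in ZM samples, against 4.71, 5.35 and 4.99 FPKM in control samples. Both fell more than 2-fold without overlap, with log2 fold changes of -1.10 ± 0.05 for Itgam and -1.13 ± 0.06 for Itgal. Exons of Itgam are shared with the annotated gene Gm49368 for 68.7% of their length, which leaves the level of Itgam uncertain; Gm49368 itself had 0 to 2 counts in each library.

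Itgax, the CD11c chain known from dendritic cells and some macrophages, rose while its shared beta chain fell. Its level was 8.74, 8.33 and 8.64 FPKM in ZM samples, against 3.56, 3.91 and 3.05 FPKM in control samples. The lowest ZM sample was more than 2-fold above the highest control sample, and the log2 fold change was 1.29 ± 0.07 (adjusted p = 6.3e-09, edgeR). Among the alpha chains that pair with Itgb2, Itgax made up 39.3% ± 2.22 of the summed FPKM in ZM and 10.98% ± 1.27 in control samples (SD, n = 3 each). Itgam made up 50.1% ± 2.38 in ZM and 73.3% ± 1.49 in control samples. The FPKM ratio of Itgax to Itgal, neither of which overlaps another gene, was 3.72 ± 0.149 in ZM and 0.699 ± 0.0768 in control samples. Itgad, the fourth partner, had 0, 3 and 2 counts in ZM samples and 1 count in each control sample and was not tested; a count of 0 allows up to 0.0515 CPM in ZM sample 1, for counting error only.

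The remaining leukocyte chains were near the floor. Itgb7, the beta chain of gut-homing receptors, had 0.458, 0.5001 and 0.674 FPKM in ZM samples, against 0.473, 0.277 and 0.283 FPKM in control samples. The groups overlapped, and its call (0.69 ± 0.25, adjusted p = 0.032, edgeR) ended with DESeq2 and without control sample 2, control sample 3 or ZM sample 3 (adjusted p between 0.073 and 0.16). Itgae, its partner on lymphocytes of epithelia, stayed under 0.1 FPKM in every sample and was not called (95% interval of the log2 fold change -1.24 to 0.56).

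**Figure D2:**
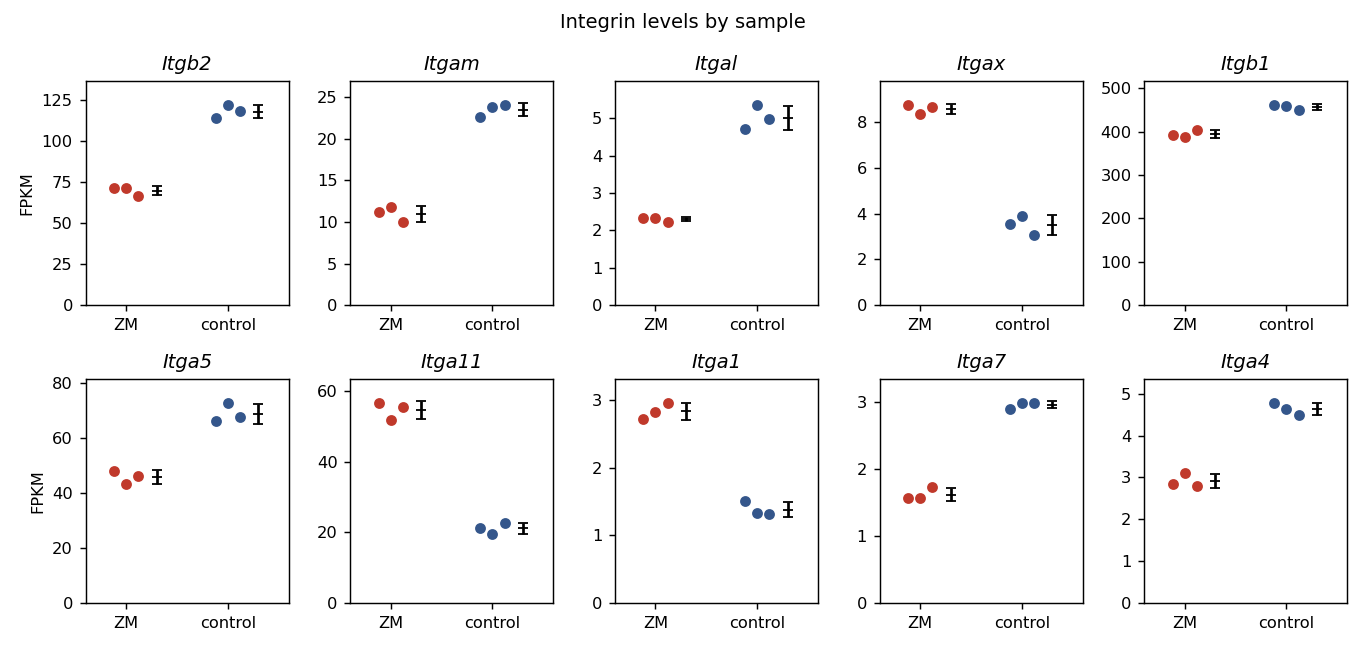
FPKM of 10 integrin chains in each of 3 ZM and 3 control samples (points), with the mean and SD beside them; each vertical axis starts at 0. Itgb2, Itgam and Itgal lie lower in all ZM samples, and Itgax and Itga11 lie higher in all ZM samples.

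Other macrophage genes were lower in the same ZM libraries. Of the 16 macrophage markers 14 fell and 1 rose, against 22.4% lower and 22.8% higher among all tested genes. Their median log2 fold change was -0.47, against -0.00 over all tested genes. Csf1r, the receptor for macrophage growth factor, averaged 65.9 ± 2.96 FPKM in ZM and 83.2 ± 3.06 FPKM in control samples, and the leukocyte phosphatase Ptprc (CD45) 7.76 ± 0.106 FPKM in ZM and 9.06 ± 0.457 FPKM in control samples. Fewer macrophages and less RNA of these genes per macrophage cannot be told apart in bulk samples. Set against Csf1r in the same library, Itgb2 stood at a ratio of 1.06 ± 0.0174 in ZM and 1.42 ± 0.0366 in control samples, and Itgam at 0.166 ± 0.0102 in ZM and 0.282 ± 0.0129 in control samples. Itgax stood at 0.130 ± 0.00660 of Csf1r in ZM and 0.0421 ± 0.00387 in control samples. Csf1r is among the macrophage markers that fell least, so the ratio was also taken to each of the 16 markers, a step chosen after their values were seen. Itgb2 was lower in ZM samples per transcript of 12 markers and higher per transcript of Lyz2, Mrc1 and C1qa, without overlap, and overlapped for Tyrobp. Per Lyz2 transcript it stood at 0.0106 ± 0.000220 in ZM and 0.00945 ± 0.000338 in control samples. Itgam and Itgal were lower and Itgax was higher in ZM samples per transcript of each of the 16 markers, without overlap. These directions follow from the fold changes, since those of the markers lay between -0.93 and 0.85. The 16 ratios of a gene share its level, so they are not separate checks. The part of the macrophage markers in these changes was not tested.

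Osteoclast markers moved upward beside Itgax. All 9 on the list rose, against 22.8% of all tested genes, by log2 fold changes from 0.39 to 4.04. They summed to 551 to 565 FPKM in ZM and 309 to 333 FPKM in control samples. Most of each sum was Ctsk, at 385 ± 11.5 FPKM in ZM and 287 ± 13.4 FPKM in control samples (0.42 ± 0.04). The part of the 9 markers in the rise of Itgax was not tested. Markers of other leukocytes were low. The 4 dendritic cell markers summed to 0.238 to 0.335 FPKM in ZM and 0.682 to 0.948 FPKM in control samples, and Flt3 had counts in 1 library only. The 3 T and NK cell markers in the table summed to at most 0.336 FPKM in any sample, with Cd8a and Nkg7 at 0 counts in all but 1 library each, and B cell markers to at most 0.130 FPKM. Of the 5 neutrophil markers only S100a8 had enough counts to be tested. It was lower in ZM samples, at 3.53 ± 0.566 FPKM, against 13.0 ± 3.84 FPKM in control samples. S100a9 had 0 counts in each ZM library and 10, 0 and 2 counts in control libraries, and Mpo had at most 2 in any library. Ly6g and Elane had counts in ZM sample 1 alone.

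**Figure D3:**
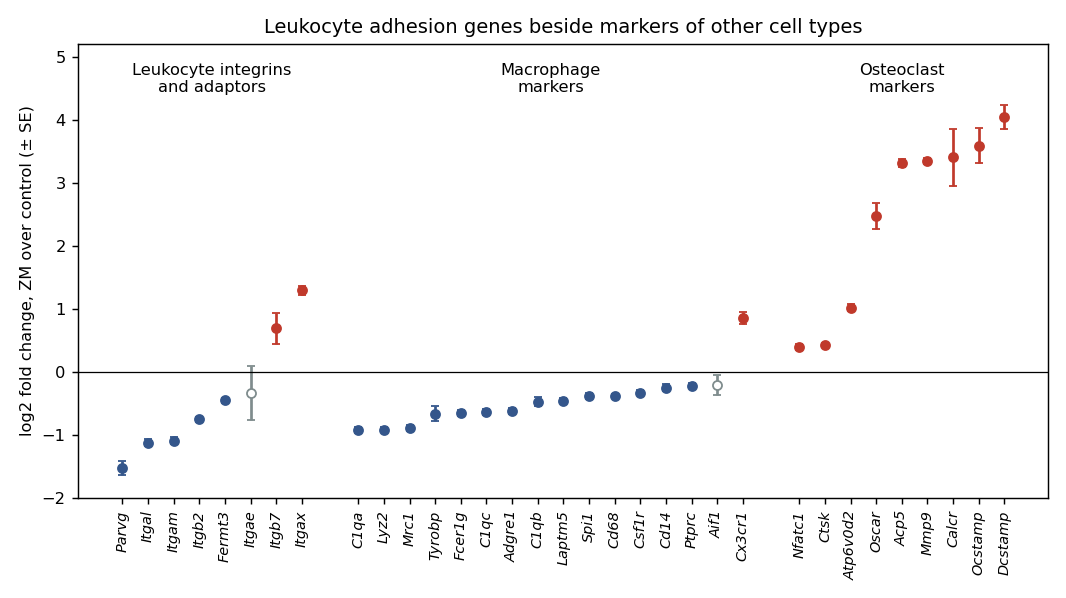
Log2 fold change of ZM over control with its standard error for 6 tested leukocyte integrins with the blood cell adaptors Parvg and Fermt3 (left), 16 macrophage markers (middle) and 9 osteoclast markers (right). Red points are called higher, blue points called lower and open points not called; Itgax at 1.29 lies above all macrophage markers and within the range of the osteoclast markers.

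Itgam and Itgax are neighbours on mouse chromosome 7. Itgam lies at 128062640 to 128118491 and Itgax at 128129547 to 128150657, both on the plus strand of GRCm38 (mm10), with 11055 bases between them. Their promoters are shown because these adjacent genes with a shared beta chain changed in opposite directions. Each sequence runs from 250 bases before to 50 bases after the start of the gene in RefSeq (GRCm38.p6). Capitals mark GAGGAA, a core recognised by the macrophage factor PU.1, and TGAGTCA, the AP-1 site, each searched on both strands (as TTCCTC and TGACTCA), and these motifs cannot overlap each other here.
Itgam, chr7:128062390-128062689, plus strand: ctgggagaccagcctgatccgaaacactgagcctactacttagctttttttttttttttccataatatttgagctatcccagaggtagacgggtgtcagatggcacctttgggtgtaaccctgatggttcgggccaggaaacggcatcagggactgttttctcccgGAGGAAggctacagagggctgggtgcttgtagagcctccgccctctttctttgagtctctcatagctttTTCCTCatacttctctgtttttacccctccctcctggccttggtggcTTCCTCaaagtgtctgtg
Itgax, chr7:128129300-128129599, plus strand: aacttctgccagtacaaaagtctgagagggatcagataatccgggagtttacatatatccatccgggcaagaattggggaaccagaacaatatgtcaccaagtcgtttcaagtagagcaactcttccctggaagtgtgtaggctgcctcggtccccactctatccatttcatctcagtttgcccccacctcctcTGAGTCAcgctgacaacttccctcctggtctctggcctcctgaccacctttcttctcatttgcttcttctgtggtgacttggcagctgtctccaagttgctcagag

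The Itgam window holds GAGGAA 3 times and no TGAGTCA, and the Itgax window holds TGAGTCA once and no GAGGAA. Among 32851 promoters of this length in the RefSeq table, 28.3% hold GAGGAA at least once, 0.685% hold it 3 or more times, and 5.202% hold TGAGTCA. Of the 44 members 31 have promoters in that table, 38 in all, of which 12 hold GAGGAA and 3 hold TGAGTCA (those of Itgax, Itga9 and Zyx). GAGGAA occurs 2 or more times in 4 of the 38 (Itgam, Itga2b, Itgav and Parvg), against 4.82% of all promoters. Itgal and Itgb2, which fell like Itgam, have no promoter there. These matches were searched after the changes were known and describe the letters only.

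Stromal integrins also held rises and falls. Of 14 tested chains 5 rose and 6 fell, against 22.8% and 22.4% of all tested genes, with a median log2 fold change of -0.01. The largest rise was in Itga11, the alpha chain of the receptor for fibrillar collagen on fibroblasts and osteoblasts. It stood at 56.8, 51.9 and 55.5 FPKM in ZM samples, against 21.4, 19.6 and 22.6 FPKM in control samples. The ZM samples were all more than 2-fold above the highest control sample, and the log2 fold change was 1.37 ± 0.05 (adjusted p = 4.3e-10, edgeR). Itga1, a collagen receptor chain that also binds basement membrane collagen, had 2.72, 2.82 and 2.96 FPKM in ZM samples, against 1.51, 1.33 and 1.32 FPKM in control samples. It rose by 1.04 ± 0.06 without overlap. Of the 8 osteoblast markers Alpl, Sp7 and Runx2 were higher in the same ZM samples. Col1a1, Col1a2 and Ibsp were not called, and Bglap and Dmp1 had too few counts to be tested. The part of these markers in the rises of Itga11 and Itga1 was not tested.

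The other collagen receptor chains were low and fell. Itga10, known from cartilage, had 0.397, 0.348 and 0.422 FPKM in ZM samples, against 0.771, 0.620 and 0.706 FPKM in control samples. Its fall (-0.84 ± 0.15) was without overlap, although 33.5% of its exon length is shared with the annotated gene Gm42957. Itga2, the collagen receptor chain of platelets and epithelia, had 0.245, 0.281 and 0.222 FPKM in ZM samples, against 0.367, 0.293 and 0.459 FPKM in control samples. The gap between its groups was narrow, and its call (-0.58 ± 0.18, adjusted p = 0.016, edgeR) ended without control sample 3, ZM sample 1 or ZM sample 3 (adjusted p between 0.052 and 0.12). The 4 collagen receptor chains summed to 58.2 ± 2.52 FPKM in ZM and 23.6 ± 1.67 FPKM in control samples, of which Itga11 made up 94.0% ± 0.337 in ZM and 89.6% ± 0.566 in control samples.

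The fibronectin receptor chain Itga5 fell. Its level was 48.0, 43.1 and 46.2 FPKM in ZM samples, against 66.0, 72.8 and 67.5 FPKM in control samples, and the groups did not overlap (-0.59 ± 0.05, adjusted p = 6.3e-08, edgeR). In control samples Itga5 was the most abundant alpha chain, whereas in ZM samples Itga11 was above it. The FPKM ratio of Itga11 to Itga5 was 1.196 ± 0.0119 in ZM and 0.309 ± 0.0353 in control samples. Itgav, the alpha chain of the vitronectin receptors, averaged 31.9 ± 1.77 FPKM in ZM and 31.6 ± 1.27 FPKM in control samples and was not called (adjusted p = 0.83, edgeR; 95% interval of the log2 fold change -0.08 to 0.10). Itga8, another chain of receptors for the RGD sequence, rose by 0.35 ± 0.07, and Itga9, a receptor chain for tenascin-C and osteopontin, by 0.46 ± 0.06.

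Among the laminin receptor chains Itga6 was the most abundant and did not pass the test, at 13.0 ± 0.391 FPKM in ZM and 13.4 ± 0.386 FPKM in control samples (95% interval of the log2 fold change -0.12 to 0.04). Itga7, best known from muscle, had 1.56, 1.56 and 1.72 FPKM in ZM samples, against 2.90, 2.99 and 2.99 FPKM in control samples. It was lower in each ZM sample (-0.87 ± 0.06). The muscle gene Acta1 was also lower, at 1.82 ± 0.117 FPKM in ZM and 14.2 ± 1.35 FPKM in control samples, while Myog and Ckm had at most 16 counts in any library; their part in the fall of Itga7 was not tested. Itga3 overlapped between groups at 1.15 ± 0.216 FPKM in ZM and 0.999 ± 0.0585 FPKM in control samples (adjusted p = 0.19, edgeR) and passed only without ZM sample 2 (adjusted p = 0.033).

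**Figure D4:**
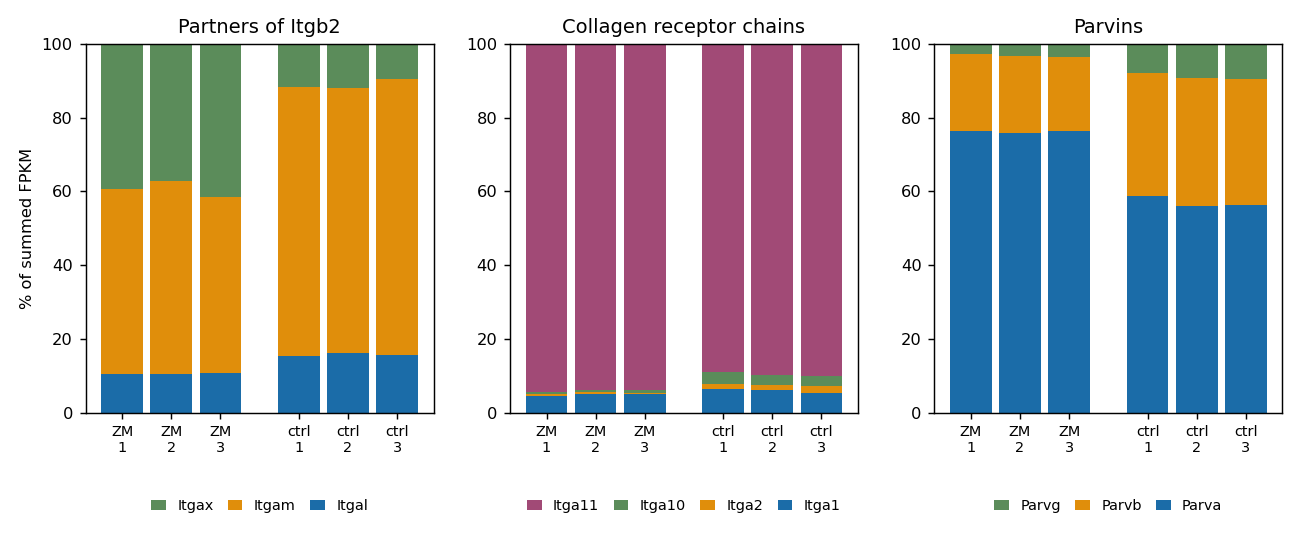
Share of the summed FPKM held by each chain in each of 3 ZM and 3 control samples, for the partners of Itgb2 (left; Itgad, under 0.1%, is not drawn), the collagen receptor chains (middle) and the parvins (right). Itgax averages 39.3% in ZM and 10.98% in control samples, and Parva 76.2% in ZM and 57.1% in control samples.

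Leukocyte chains were next set beside stromal chains. The summed level of the leukocyte alpha chains was 13.8% ± 0.972 of that of the stromal alpha chains in ZM and 21.8% ± 0.640 in control samples, with every ZM sample below every control sample. Without Itgam, whose level is uncertain, the direction turned. The share was then 6.89% ± 0.156 in ZM and 5.86% ± 0.387 in control samples, with every ZM sample above every control sample. Of the Itgb2 partners then left, Itgax, which rose, made up 78.8% ± 0.698 in ZM and 41.1% ± 2.72 in control samples. Itgal, which fell, made up 21.2% ± 0.664 in ZM and 58.9% ± 2.73 in control samples. With Itgam the sums were 21.9 ± 0.893 FPKM (leukocyte) and 159 ± 5.77 FPKM (stromal) in ZM samples, against 32.0 ± 1.09 FPKM (leukocyte) and 147 ± 1.27 FPKM (stromal) in control samples. For the beta chains, the FPKM ratio of Itgb2 to Itgb1 was 0.177 ± 0.0107 in ZM and 0.259 ± 0.0102 in control samples. Median log2 fold changes were -0.55 over the 6 tested leukocyte chains, of which 2 rose and 3 fell, and -0.01 over the 14 stromal chains. Among all tested genes 22.8% rose and 22.4% fell. Each class held both rises and falls of at least 1.5-fold. The leukocyte median lies midway between the log2 fold changes of Itgb2 and of Itgae, a chain with 7 to 18 counts a library. The difference between the classes has no test of its own, since genes are not replicates.

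Of the 5 chains of other or shared lineages 4 were tested. Itga4, a chain of receptors for VCAM1 and fibronectin on leukocytes and mesenchymal cells, had 2.85, 3.10 and 2.79 FPKM in ZM samples, against 4.79, 4.63 and 4.50 FPKM in control samples. It fell without overlap (-0.67 ± 0.05). Itgb3, the vitronectin receptor chain of platelets and osteoclasts that stromal cells also use, had 3.20, 2.75 and 3.50 FPKM in ZM samples, against 2.47, 2.61 and 2.69 FPKM in control samples. ZM sample 2 lay close to the control samples, the log2 fold change was 0.28 ± 0.08 (adjusted p = 0.0095, edgeR), and the call ended without ZM sample 3. The 9 osteoclast markers, which do not include Itgb3, had a median log2 fold change of 3.31. They ranged from 0.39 for Nfatc1 and 0.42 for Ctsk to 4.04 for Dcstamp. Itga2b, the platelet partner of Itgb3, had 0.321, 0.339 and 0.357 FPKM in ZM samples, against 0.336, 0.327 and 0.381 FPKM in control samples, and was not called. The chemokine Pf4, from the list of megakaryocyte and platelet markers, averaged 23.8 ± 1.496 FPKM in ZM and 238 ± 23.2 FPKM in control samples. Gp1ba, on the same list, averaged 0.335 ± 0.0403 FPKM in ZM and 0.220 ± 0.0551 FPKM in control samples (not called, groups not overlapping). Its other members Gp9, Gp6 and Gp1bb had at most 2 counts in any library. Which cells held Pf4 was not tested, so its fall cannot be read as a change in platelets or megakaryocytes. The epithelial chains were near the floor, with Itgb4 at 0.196 ± 0.00616 FPKM in ZM and 0.142 ± 0.0231 FPKM in control samples (adjusted p = 0.088, edgeR), and Itgb6 at 2 to 13 counts a library and not tested.

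Among the focal adhesion proteins 17 of 18 were tested. Of these 7 rose and 6 fell, against 22.8% and 22.4% of all tested genes, and the median log2 fold change was 0.07. The switches that act on the beta chain tail did not move together. Tln1, the talin of most cells and of leukocytes, had 69.8, 68.6 and 70.7 FPKM in ZM samples, against 64.8, 64.3 and 65.3 FPKM in control samples, a small rise of 0.11 ± 0.03 without overlap. Tln2 had 13.9, 13.6 and 14.6 FPKM in ZM samples, against 8.04, 8.30 and 8.49 FPKM in control samples. Its rise was the largest of all focal adhesion proteins (0.76 ± 0.04, adjusted p = 6.0e-11, edgeR), and Tln2 made up 16.8% ± 0.359 of talin transcripts in ZM and 11.3% ± 0.249 in control samples.

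Both expressed kindlins fell. Fermt2, the kindlin of stromal cells, averaged 30.0 ± 0.241 FPKM in ZM and 37.3 ± 1.08 FPKM in control samples (-0.32 ± 0.03). Fermt3, the kindlin of blood cells, averaged 13.2 ± 0.524 FPKM in ZM and 18.2 ± 0.440 FPKM in control samples (-0.46 ± 0.04). The FPKM ratio of Fermt3 to Fermt2 was 0.442 ± 0.0206 in ZM and 0.487 ± 0.0167 in control samples, and that of Fermt3 to Csf1r 0.201 ± 0.00296 in ZM and 0.218 ± 0.00271 in control samples. Per transcript of the 16 macrophage markers, Fermt3 was lower in ZM samples for 4, higher for 6 and overlapping for 6. The epithelial kindlin Fermt1 had 2 counts in ZM sample 1, 4 in control sample 1 and 0 in the other 4 libraries.

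Parvins, the actin-binding arm of the ILK complex, differed in make-up. The 3 genes summed to 40.3 ± 1.04 FPKM in ZM and 41.1 ± 0.862 FPKM in control samples, and these sums overlapped between groups. Parva, the most widely expressed of them, averaged 30.7 ± 0.749 FPKM in ZM and 23.4 ± 0.197 FPKM in control samples (0.39 ± 0.03). Parvb, known from muscle and other tissues, had 8.15, 8.65 and 8.17 FPKM in ZM samples, against 13.3, 14.4 and 14.3 FPKM in control samples. Parvg, the blood cell parvin, had 1.10, 1.29 and 1.42 FPKM in ZM samples, against 3.20, 3.79 and 3.94 FPKM in control samples. Both fell without overlap, Parvb by 0.75 ± 0.05 and Parvg by 1.53 ± 0.11 on the log2 scale (adjusted p = 7.2e-09 for Parvg, edgeR). The fall of Parvg was the largest of all 41 tested members. Parvg was also lower per transcript of each of the 16 macrophage markers, without overlap. The direction follows from its fold change, as no marker fell as much (lowest -0.93). For Csf1r the ratio was 0.0194 ± 0.00329 in ZM and 0.0438 ± 0.00483 in control samples.

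Of the other parts of that complex, the main PINCH protein Lims1 averaged 42.3 ± 0.757 FPKM in ZM and 40.3 ± 2.88 FPKM in control samples (adjusted p = 0.22, edgeR; 95% interval of the log2 fold change -0.02 to 0.16). Lims2 was low and rose by 0.45 ± 0.11. Ilk, the kinase-like core of the complex, had 23 to 29 counts in ZM and 23 to 61 counts in control libraries. Taf10 and Rrp8 share 89.7% of its exon length, so the low level of Ilk is uncertain and no weight can be put on its log2 fold change of -0.67 ± 0.29 (adjusted p = 0.070, edgeR).

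**Figure D5:**
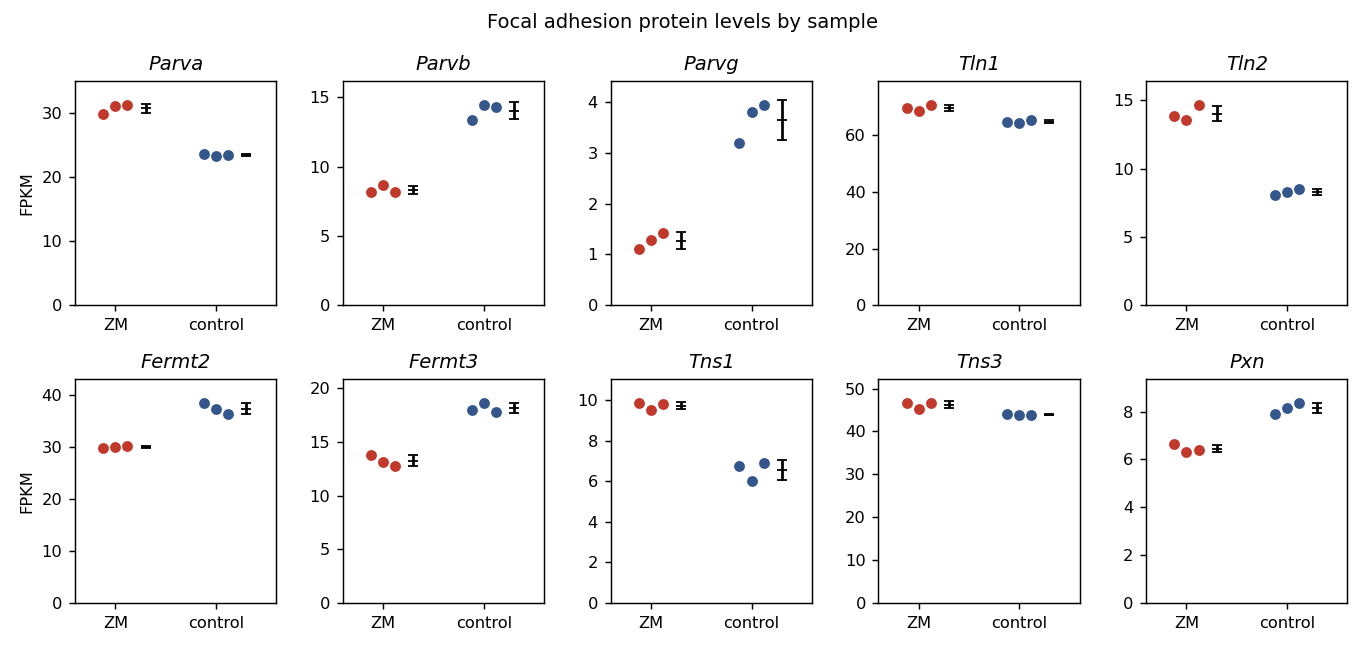
FPKM of 10 focal adhesion genes in each of 3 ZM and 3 control samples (points), with the mean and SD beside them; each vertical axis starts at 0. Parva, Tln2 and Tns1 lie higher and Parvb, Parvg, both kindlins and Pxn lie lower in all ZM samples.

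Among the scaffolds, Tns1, a tensin that links integrins to actin in fibrillar adhesions, had 9.87, 9.53 and 9.81 FPKM in ZM samples, against 6.78, 6.00 and 6.88 FPKM in control samples. It rose by 0.57 ± 0.05 without overlap. The more abundant Tns3 had 46.7, 45.2 and 46.6 FPKM in ZM samples, against 44.0, 43.8 and 43.8 FPKM in control samples. Its groups did not overlap, but the difference was small and was not called (0.07 ± 0.03, adjusted p = 0.062, edgeR); it was called with library size alone, on FPKM values and without ZM sample 2. Vcl, which reinforces the talin link to actin, rose by 0.19 ± 0.03, with 25.5% of its exon length shared with Ap3m1. Zyx, a protein of mature, tension-bearing adhesions, had 48.6, 48.0 and 50.5 FPKM in ZM samples, against 54.9, 53.5 and 58.1 FPKM in control samples. Its small fall (-0.18 ± 0.04) was not called on FPKM values, while the scaffold Pxn fell by 0.34 ± 0.04, to 6.45 ± 0.163 FPKM in ZM samples, against 8.16 ± 0.226 FPKM in control samples.

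Of the signalling members, the focal adhesion kinase Ptk2 averaged 5.55 ± 0.161 FPKM in ZM and 5.63 ± 0.200 FPKM in control samples, with overlapping groups (adjusted p = 0.75, edgeR; 95% interval of the log2 fold change -0.11 to 0.07). Bcar1, the docking protein p130Cas that the kinase helps to phosphorylate, rose by 0.20 ± 0.04.

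Beyond the members, 44 regulators of focal adhesions were tested, of which 20 rose and 10 fell, against 22.8% higher and 22.4% lower among all tested genes, with a median log2 fold change of 0.07. At 1.5-fold or more 3 of the 44 were called, against 14.4% of all tested genes. Kank2, which surrounds adhesions and activates talin, rose to 27.0 ± 0.406 FPKM in ZM samples, against 19.8 ± 0.920 FPKM in control samples, and the adaptor Sorbs3 (vinexin) rose by 0.38 ± 0.05. The actin assembly factor Vasp fell by 0.49 ± 0.09, and Apbb1ip (RIAM), which brings talin to integrins and is abundant in leukocytes, by 0.44 ± 0.05.

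Of 36 integrin ligands 33 were tested, 12 rose and 15 fell, against 22.8% higher and 22.4% lower among all tested genes, with a median log2 fold change of -0.08. Transcripts of Col1a1 and Col1a2, the collagen that Itga11 binds, were not called (-0.02 ± 0.04 and -0.08 ± 0.03), while Itga11 rose. Fibronectin, Fn1, fell by 0.51 ± 0.03, to 598 ± 15.2 FPKM in ZM samples, against 853 ± 11.4 FPKM in control samples, and so moved the same way as its receptor chain Itga5. Tenascin-C, Tnc, fell by 0.68 ± 0.04 and osteopontin, Spp1, by 1.64 ± 0.04, whereas Itga9, which binds both, rose. Jam2, a junction protein that binds Itga4 with Itgb1, fell by 1.03 ± 0.05. Tgfb1 and Tgfb3, whose latent forms bind Itgav receptors, went in opposite directions. Tgfb1 averaged 16.4 ± 0.807 FPKM in ZM and 26.2 ± 1.27 FPKM in control samples (-0.67 ± 0.04), and Tgfb3 averaged 39.1 ± 0.495 FPKM in ZM and 24.4 ± 1.205 FPKM in control samples (0.68 ± 0.04). C3, a fragment of which is the ligand of Itgam and Itgax with Itgb2, rose by 0.59 ± 0.04.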

How the data were processed

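Whole-number read counts and FPKM values were deposited by the authors for 31401 genes in 6 samples, per the file headers. Tools listed in the submitters' processing notes are featureCounts 2.0.3 (Subread), HISAT2 2.2.1 and DESeq2, with build mm10. Gene annotation, strandedness and the rule for reads that genes share were not given in the sources used here. FPKM values deposited by the authors divide counts by library total and by a gene length, recovered here as a whole number (within 0.01 bases) for 100% of genes. Gene length and TMM-scaled library sizes gave the FPKM printed.

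The test on counts was that of edgeR 4.0.16, run under R 4.3.3 (TMM, filterByExpr, robust quasi-likelihood F test, Benjamini-Hochberg adjustment over 17533 genes, threshold 0.05; biological coefficient of variation 6.46%). A standard error is the size of the log2 fold change over the root of its F statistic. Members, lists, classes and tests were chosen with earlier results of these data known. Every member is named; values in every sample are given for members called without overlap at a log2 change of at least 0.5 and for the 3 most abundant of each class. From the regulator and ligand lists, the 2 largest rises and 2 largest falls at 5 FPKM or more are named, and further ligands beside their receptors.

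Coordinates and exon overlaps are from GENCODE M21 (GRCm38), 1-based. Promoters are from RefSeq. On simulated counts for ZM against control (17266 genes tested), edgeR recovered 22 of 50 genes changed 1.2-fold, 46 of 50 changed 1.5-fold, 49 of 50 changed 2-fold and 50 of 50 changed 4-fold, and 4.02% of its calls were false. Only these genes were changed, all with a mean of at least 1 CPM, and genes of like level were given like spread. In the data 45.3% of genes were called, so these rates need not hold there. Library pairs of a group had chi-square values per degree of freedom between 5.30 and 8.98, beyond sampling noise; none was treated as a copy.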

Additional observations from a re-analysis of the deposited data

How the results depend on the processing

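Of the 41 tested members 28 kept direction and call under all 14 alternatives in which they could be tested. Called members numbered 31 with a replicate block (7752 of all genes), 30 with DESeq2 1.42.0, and 28 to 33 when 1 sample was left out. Same-numbered samples did not deviate together (correlations -0.04, 0.06 and -0.01), so the numbers were not taken as pairs, and the block changed no member's call. On FPKM values with limma 3.58.1 (pseudocount 1 or 0.1, mean of at least 1 FPKM) 7 of 11 stromal chains were called. Chains of other lineages called numbered 1 or 2 when 1 sample was left out (1 without ZM sample 3).

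The leukocyte median of -0.55 was -0.35 without a filter, -0.76 at a mean of at least 1 CPM, -0.37 with DESeq2, -0.76 and -0.87 on log2(FPKM + 1) and log2(FPKM + 0.1), -0.67 with Itga4 added, -0.34 without members whose exons overlap other genes over at least 25% (an alternative chosen after seeing the data), and -0.75 to -0.47 when 1 sample was left out; the number of chains tested differs between these. The stromal median of -0.01 was 0.047 with library size alone, 0.069 and 0.071 on the FPKM scales, and -0.03 to 0.01 when 1 sample was left out. The focal adhesion median of 0.07 was 0.13 with library size alone and on both FPKM scales, 0.026 without a filter, 0.023 with DESeq2, and 0.027 to 0.076 when 1 sample was left out. Library size alone moved the median of all genes to 0.06; the cause of other shifts was not tested. The share of leukocyte in stromal alpha chains, ZM minus control, was -8.03 percentage points and became 1.03 without Itgam (also chosen after seeing the data). Itgam is the most abundant of the leukocyte alpha chains, and Itgax, which rose, makes up most of the rest in ZM samples.

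Sign changes were confined to 4 members that were not called. Ptk2 was at 0.041 with library size alone, 0.034 and 0.040 on FPKM, and -0.041 to 0.0090 when 1 sample was left out. Itga6 was at 0.021 with library size alone and 0.019 and 0.021 on FPKM. Itga2b was at 0.019 with library size alone and -0.089 to 0.031 when 1 sample was left out, and Itgav was at -0.033 to 0.047 then. Lims1 was called with library size alone and without control sample 1, and Ilk without control sample 1.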
